A study of Mus musculus with 10 samples.

Results

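Unmarked bins that were joined to several H3K4me3-marked bins at once are described here, as candidate enhancer elements shared between promoter regions in mouse microglia. A bin is a 5 kb piece of the genome. Each bin of the deposited contact list carries a flag for H3K4me3, a histone modification of promoters. A bin was chosen by its number of partners: it had to be flagged as unmarked and be joined to 4 or more different marked bins. Of 16633 unmarked bins with a contact, 436 (2.62%) met this rule and are called members, and they lay on all 19 autosomes. The other 16197 unmarked bins, with 1 to 3 marked partners, are given beside them.

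The contacts came from H3K4me3 PLAC-seq, in which chromatin is cross-linked and ligated in the nucleus and the ligated pairs are then enriched by an antibody to the mark. The cells were whole-cell microglia (CD45+ CD11b+ CX3CR1+) sorted from the brains of adult male wild-type C57/Bl6 mice (C57BL/6J in the study's methods). The contacts of 2 PLAC-seq libraries form 1 common list, 2 H3K4me3 ChIP-seq libraries of the same genotype have a peak list each, and the 4 Hi-C libraries (wild type and a deletion of the Sall1 enhancer, 2 each) were not analysed here. Whether the replicates are separate animals is not stated.

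Enhancers are stretches of DNA that bind transcription factors and act on promoters that can lie far away on the same chromosome, and they come close to those promoters when the chromatin folds. Enhancers in use usually carry little H3K4me3, whereas promoters in use carry much of it. An enhancer can contact several promoters, and a promoter several enhancers. In microglia and other macrophages, enhancers are typically bound by PU.1 together with AP-1, C/EBP, RUNX and IRF family factors, and CTCF together with cohesin holds many chromatin loops at their ends.

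The members were checked against these sequence features because the rule did not use them. For 5 members or runs of adjacent members, the stretch with matches of the fixed motifs is shown on the plus strand of mm10 (GRCm38), with the matches in capitals. They were picked among more such elements: those with the most partners or coding genes, and those joined to microglial identity or myeloid factor genes. The motifs, searched on both strands, were GAGGAAGT for PU.1, TGANTCA for AP-1, TGTGGTT for RUNX, TTNNGCAA for C/EBP, GAANNGAAA for IRF, GTCTAGAC for SMAD and TCACGTGA for MITF/TFE, with MEF2 and CTCF by name.
Cebpb element, intergenic, chr2:167891094-167891199: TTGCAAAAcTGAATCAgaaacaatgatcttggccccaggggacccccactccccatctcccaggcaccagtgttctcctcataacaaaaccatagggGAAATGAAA
Dusp6 element, intergenic, chr10:99576552-99576620: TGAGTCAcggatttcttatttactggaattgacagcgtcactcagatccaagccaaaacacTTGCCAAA
Sall1 element, intergenic, chr8:89400704-89400716: TTGCTCAACCACA
Irf2 element, in an intron of Irf2, chr8:46765066-46765131: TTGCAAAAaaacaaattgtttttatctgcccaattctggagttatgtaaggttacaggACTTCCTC
Element joined to the Ly6g6 genes and Clic1, in an intron of Vwa7, chr17:35023865-35023931: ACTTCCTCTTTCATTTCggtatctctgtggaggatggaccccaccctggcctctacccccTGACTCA
The Cebpb element held a C/EBP, an AP-1 and an IRF match, and the Vwa7 element a PU.1, an IRF and an AP-1 match, with the first 2 of them adjacent. In the Sall1 element, a C/EBP and a RUNX match overlapped at their ends. A match says only that these letters are present.

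CTCF matches have a direction, and at the ends of loops they are known to point towards each other. The matches in named elements are shown with 12 bases on each side, on the plus strand of mm10, with the match in capitals and the strand on which it was read. These lines were chosen after their values were seen.
Dusp6 element, intergenic, chr10:99577431-99577468, minus strand: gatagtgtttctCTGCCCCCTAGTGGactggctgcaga
Sall1 element, intergenic, chr8:89571991-89572028, minus strand: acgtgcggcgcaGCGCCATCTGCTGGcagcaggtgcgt
Pfkfb3 element, intergenic, chr2:11331666-11331703, plus strand: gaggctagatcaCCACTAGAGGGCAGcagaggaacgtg
Hes1 element, intergenic, chr16:29729034-29729071, plus strand: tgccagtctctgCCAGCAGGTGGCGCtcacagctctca
Ski and Faap20 element, in an intron of Morn1, chr4:155094635-155094672, minus strand: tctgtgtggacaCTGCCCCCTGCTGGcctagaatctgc
A match on the plus strand points to higher coordinates and a match on the minus strand to lower ones. The Dusp6 and Sall1 matches lie on the minus strand, and all marked partners of their bins lay on the lower side. The Pfkfb3 and Hes1 matches lie on the plus strand, and all partners of their bins lay on the higher side. The Ski match on the minus strand pointed away from its partners, all of which lay on the higher side, and the next bin of that run held another match on the plus strand, which pointed towards them.

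The number of partners declined steeply among the unmarked bins. There were 11905 bins with 1 marked partner, 3344 with 2 and 948 with 3, just outside the rule. Just inside it, 297 bins had 4 partners, and a further 92 had 5, 26 had 6, 14 had 7 and 7 had 8. The contacts of the bins with 4 partners held 3.98 times the read pairs that the caller expected, and those with 3 partners 3.69 times. Both values come from contacts that had to be called to enter the rule and are a description. The 436 members formed 344 runs of adjacent bins, of which 279 were 1 bin, 47 were 2 bins and 18 were 3 to 5 bins long.

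**Figure D1:**
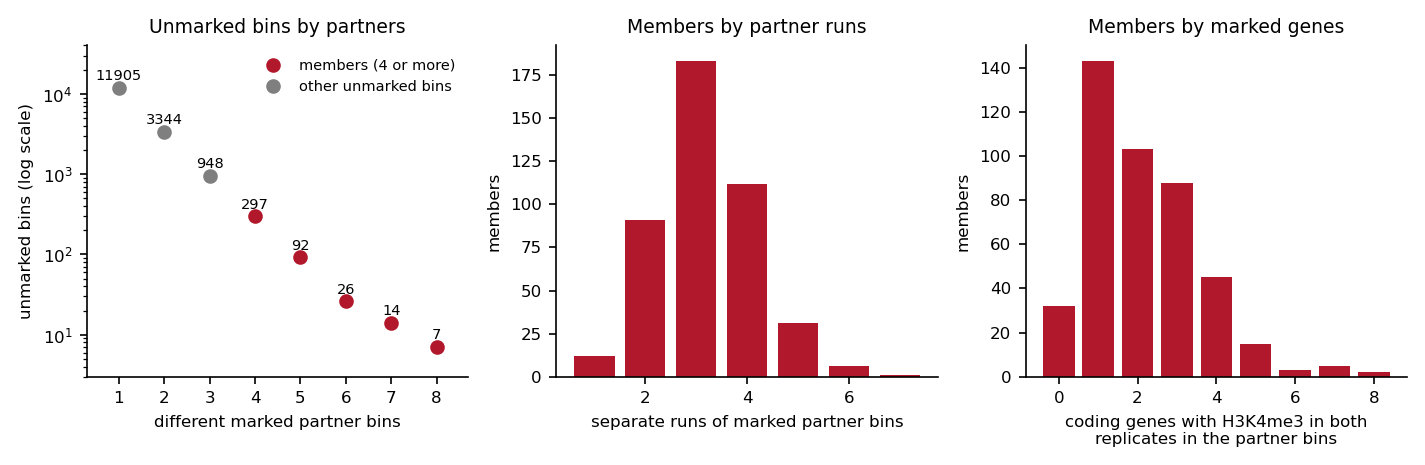
Left, number of unmarked 5 kb bins (log scale) against the number of different marked bins they were joined to, with the 436 members in red and the other 16197 unmarked bins in gray. Middle and right, the 436 members by the number of separate runs of marked partner bins and by the number of coding genes with a TSS in a partner bin and an H3K4me3 peak in both replicates; 3 runs of partners (183 members) and 1 such gene (143 members) were the most frequent values.

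The partners of a member mostly did not form 1 stretch of adjacent bins. Adjacent marked bins joined into runs gave 2 or more separate runs for 424 members (97.2%), 3 or more for 333 (76.4%) and 4 or more for 150 (34.4%). Since 1 missing bin splits a run, separate runs need not be separate promoter regions. For 32 members the partners held no coding gene with H3K4me3 peaks in both replicates, and for 143 only 1. The partners of a member spanned 95 kb from the first to the last (median, quartiles 50 and 175 kb). Few of these contacts stood apart in the list, because the caller groups neighboring contacts into clusters with 1 summit each. The contacts of 98 members (22.5%) fell into 1 cluster and those of 206 (47.2%) into 2. When only cluster summits and single contacts counted, 1 member was left, an intergenic bin at chr7:35170001-35175000 that was joined to Chst8, which encodes a sulfotransferase, and Pepd, which encodes a peptidase. This setting also drops a contact that is the only one of its member in a cluster but not the summit. The contacts of 99 members (22.7%) fell into 3 clusters or single contacts, of 27 (6.19%) into 4 and of 6 (1.38%) into 5. Thus most members, but not all, owed part of their partners to neighboring contacts of the same cluster.

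The members made up 1958 of the 26689 contacts in the list (7.34%), with 40076 read pairs against 9893 expected (ratio of 4.05). The contacts of the other unmarked bins had a ratio of 3.37. The median contact of a member had a ratio of 4.49 (quartiles 3.52 and 6.0) and that of the other bins 4.08 (quartiles 3.11 and 5.19). The distance of a contact had a median of 140 kb (quartiles 75 and 235 kb) for members and 120 kb (quartiles 55 and 220 kb) for the other bins, and the ranges were 10 to 830 kb and 10 to 1000 kb. Between 100 and 200 kb, the median ratio was 4.55 for members and 4.28 for the other bins, with 3.41 and 3.42 read pairs expected. Read pairs were summed over both libraries, so no error between samples can be given and the difference was not tested.

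Partners lay on both sides of 95 members (21.8%), on the left only of 161 (36.9%) and on the right only of 180 (41.3%). Of the bins with 2 or 3 partners, 12.6% had partners on both sides. The partner bins were rarely joined to each other. Among 3013 pairs of partners of 1 member that lay at least 10 kb apart, 374 (12.4%) had a called contact of their own, against 586 of 4113 pairs (14.2%) for the bins with 2 or 3 partners. In 175 members (40.1%), at least 1 pair of partners was in contact. A pair that is not in the list was not called, and this does not show that it was apart.

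Flags and deposited peaks of H3K4me3 were compared next, since the flags came from peaks called in the same libraries by another pipeline. Values of a peak are mapped tags scaled to a library of 10 M in each of the 2 replicates, 1 and 2 in that order. Peaks lay in 16 members (3.67%) in replicate 1 and in 20 (4.59%) in replicate 2, and 4 members (0.917%) held peaks in both, against 0.523% of all unmarked bins. These 4 pairs of peaks were low, at 7.79 and 8.95 in the bin joined to Pfkfb3, 13.2 and 5.97 in that joined to Grpel1, Tbc1d14, Tada2b and Ccdc96, 8.57 and 9.70 in a Ccdc162 intron, and 10.1 and 5.22 in a Nos1ap intron. Of the 1297 different marked partner bins of the members, 1028 (79.3%) held deposited peaks in both replicates. Therefore the flags and the peak lists matched for most bins but not for all.

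The peaks were also checked at marker genes of microglia and of other cells. All 12 microglia marker genes fixed for this check were marked by a peak no more than 1 kb from a TSS in each replicate, with summed values of 2610 and 2502. None of the 6 markers of monocytes, neutrophils and lymphocytes had a peak. Summed values were 15.6 and 19.4 for 4 markers of border macrophages (Lyve1 and Cd163 at 0), 36.6 and 23.1 for 5 of neurons, 205 and 213 for 4 of astrocytes (Gfap, Aqp4 and Aldoc at 0), 185 and 225 for 6 of oligodendrocytes (Mog and Sox10 among those at 0) and 225 and 195 for 4 of endothelial cells. Single genes held most of the last 3 sums: Slc1a3 (204.9 and 212.6), Mbp (162.8 and 210.3) and Kdr (153.5 and 116.4). In replicate 1 all 3 were above the microglia marker P2ry12 (134.8), and in replicate 2 only Kdr was below it (154.4). The part of other cells in the contacts was not tested. No gene of these 6 lists of other cells had a TSS in a partner bin of a member. However, each list had at most 3 genes marked in both replicates, and only 5.14% of all marked genes were joined to members. The absence of so few genes is near that share and says little about the members.

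Most members had their centre outside exons. By this rule, 192 (44.0%) were intergenic, 221 (50.7%) intronic and 23 (5.28%) exonic, against 42.1%, 52.4% and 5.50% of the other unmarked bins. When any overlap of the bin counted, 39.4% of members were intergenic, 24.1% intronic and 36.5% touched an exon, against 38.2%, 26.5% and 35.3% of the other bins. A coding TSS lay in 19 members (4.36%) and in 3.13% of the other bins. The median distance to the nearest TSS marked in both replicates was 23.2 kb for members and 24.7 kb for the other bins. Yet the nearest marked gene was among the partners of only 114 members (26.1%). For most members, then, the nearest marked gene was not among the called partners. The share was 25.6% for bins with 2 or 3 partners and 16.2% for those with 1.

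Members lay among more marked bins than the other unmarked bins. Within 250 kb, bins with deposited peaks in both replicates numbered 11 (median, quartiles 7 and 17) around members and 8 (quartiles 5 and 12) around the other bins. The share of members grew with this number. It was 1.62% (130 of 8005) among unmarked bins with 0 to 7 marked bins nearby, 2.74% (164 of 5983) with 8 to 14, and 5.37% (142 of 2645) with 15 or more. The rule asks for marked partners, so it favors such surroundings, and this difference is a description of how the members were chosen.

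**Figure D2:**
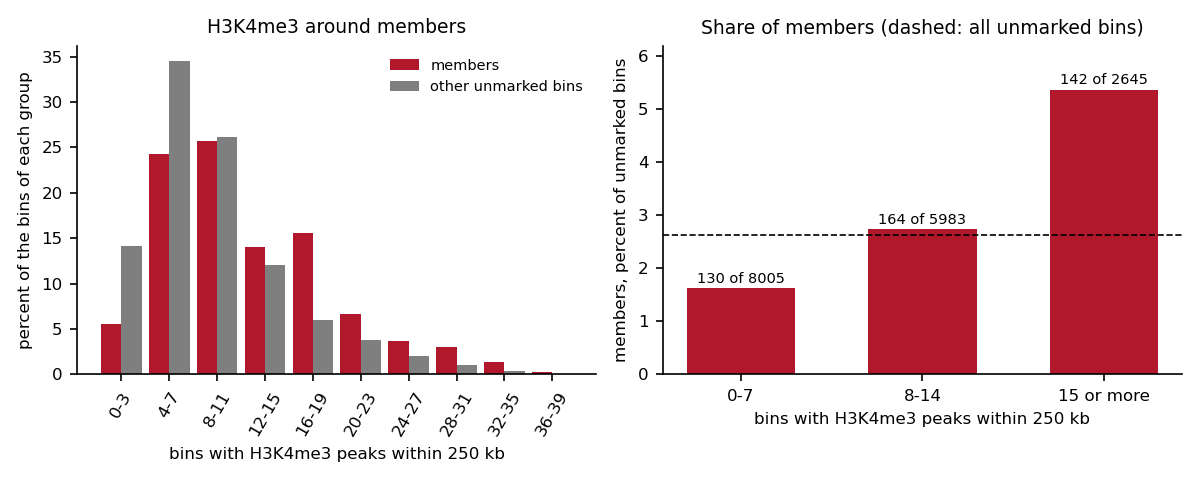
Left, percent of the bins of each group (members in red, other unmarked bins in gray) by the number of bins with H3K4me3 peaks in both replicates within 250 kb. Right, members as a percent of the unmarked bins in 3 classes of that number, with the value over all unmarked bins (2.62%) as a dashed line; the share was 1.62% in the lowest and 5.37% in the highest class.

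Genes are called joined to a member when a coding TSS lies in one of its marked partner bins. In all, 655 coding genes were joined to members, and 632 of them were marked, that is, both replicates had a peak no more than 1 kb from a TSS, which is 5.14% of the 12291 autosomal coding genes so marked. At least 2 coding genes were joined to 269 members (61.7%), at least 3 to 164 (37.6%) and at least 5 to 28. No coding TSS lay in the partners of 27 members, of which 14 had a noncoding TSS there. Separate runs shared genes too, since 137 genes (20.9%) were joined to 2 or more runs and 24 to 3 or more.

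The run with the most partners was joined to 10 coding genes. This intergenic run at chr11:70630001-70640000, which holds the TSS of Gp1ba, a platelet glycoprotein gene, had 11 partners in 9 runs. They held TSSs of the marked genes Arrb2 (beta-arrestin 2, which desensitizes receptors), Pld2 (phospholipase D2), Psmb6 (a proteasome subunit) and Med11 (a Mediator subunit). Further marked genes there were Kif1c (a kinesin), Camta2, Inca1, Pelp1, Zmynd15 and Zfp3. The partner bin of Zmynd15 itself held no deposited peak in either replicate. The contact of this run with Zfp3, 130 kb away, had 27 read pairs against 3.22 expected. A nearby run at chr11:70500001-70510000, with the TSS of Tm4sf5, was joined to Arrb2, Med11, Pelp1, Zmynd15 and Cxcl16, which encodes a chemokine. Its contact with Arrb2 had 43 read pairs against 5.98 expected. Arrb2, Pld2 and Psmb6 were each joined to 5 members and Pelp1 to 7.

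The run at chr18:37850001-37870000 in an intron of Diaph1, which encodes a formin, had 10 partners, all on the left. They held the TSSs of 9 gamma protocadherin genes, which encode cell adhesion proteins from a cluster of alternative promoters, among them Pcdhga10 and Pcdhgb7. H3K4me3 at these genes was low, at 28.0 and 23.9 for Pcdhgb7 and 13.2 and 16.4 for Pcdhga10. Another element in the same gene, at chr18:37885001-37890000, was joined to 7 genes of this family. Another run at chr18:36685001-36695000 had 9 partners with the TSSs of Cd14, the coreceptor for bacterial lipopolysaccharide, Ik, Ndufa2, Tmco6, Slc35a4 and Apbb3. Cd14 carried H3K4me3 at 239.2 and 224.5.

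Many coding genes were joined to single bins in some regions. The bin at chr7:80130001-80135000 was joined to 8 marked genes between 100 and 240 kb to the right, including Unc45a, Vps33b, which acts in vesicle fusion, and Man2a2. The bin at chr17:35020001-35025000, in the class III region of the histocompatibility complex, had 8 coding genes in its partners, 7 of them marked, among them Clic1 and Ddah2. In each case 7 coding genes were joined to elements at chr6:82990001-82995000 (including Dctn1 and Ino80b), chr7:127110001-127120000 (including Aldoa, a glycolytic enzyme), chr15:76860001-76870000 (including Recql4, a helicase) and chr11:69875001-69880000 (including Polr2a, the large subunit of RNA polymerase II, and Tnfsf12). Runs with many partners but fewer genes lay at chr4:133825001-133845000 (10 partners, with Sfn, Pigv, Gpn2 and Zdhhc18), chr2:30420001-30440000 in a Ptpa intron (9, with Ntmt1 and Tor1b), chr17:35825001-35835000 in a Flot1 intron (8, with Ppp1r10) and chr16:32200001-32205000 (8, with Nrros, a protein that holds TGF-beta 1 in microglia, Cep19 and Pigx).

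Dusp6, a phosphatase that inactivates ERK kinases, was joined to 13 members in 9 runs, the most of the 655 genes. These members lay between chr10:99165001-99170000 and chr10:99625001-99630000, on both sides of the gene, and 7 of them were also joined to Galnt4 and Poc1b. The contacts of Dusp6 with the 3 bins of the run at chr10:99570001-99585000 had 27 read pairs against 3.81 expected at 310 kb, 36 against 4.19 at 315 kb, and 40 against 4.35 at 320 kb. The 3 adjacent bins thus gave like ratios, of 7.09, 8.60 and 9.20. The run had 10 partners in 7 runs, of which 8 held no coding TSS. H3K4me3 at Dusp6 was 329.5 and 302.8.

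A few members stood out by the strength of their contacts, and since the ratio is part of how a contact is called, it is given as a description. Over all members the summed ratio had a median of 4.49 and went from 2.21 to 12.3. The highest was at chr16:29730001-29735000, an intergenic bin with 105 read pairs against 8.51 expected. It was joined to the bin of Hes1, a Notch target, with peaks of 92.7 and 81.3, at 335 kb with 26 read pairs against 3.01 expected, and more strongly to a marked bin with no coding TSS at 505 kb, with 34 against 1.88. Within 1 kb of a Hes1 TSS, only replicate 1 had a peak. The next highest member was a bin in an intron of Tpcn2, at chr7:145240001-145245000, with a ratio of 11.7. Its contact with Ccnd1, which encodes cyclin D1 of the cell cycle, had 59 read pairs against 2.51 expected at 305 kb. That ratio of 23.5 was the highest of the 1958 contacts, and LTO1 was joined to the same bin with 25 read pairs against 2.36. A bin at chr6:120190001-120195000, with the TSS of Ninj2, had 39 read pairs against 2.61 with Wnk1, an ion transport kinase. The bin at chr14:62245001-62250000 was joined to Trim13 and Spryd7 over 650 and 690 kb, with 10 read pairs against 1.38 and 13 against 1.46.

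Cebpb, a transcription factor gene of myeloid cells, was joined to a run of 4 adjacent members at chr2:167890001-167910000, between 205 and 220 kb away. Its 4 contacts had 43 read pairs against 2.38 expected, 51 against 2.90, 20 against 2.93 and 17 against 2.58, from the nearest bin to the farthest. The ratios were 18.1, 17.6, 6.83 and 6.59, so the nearer pair of bins held the stronger contacts. Ube2v1 and Tmem189 were joined to the same run, with at most 23 read pairs against 3.53. Ptpn1, the nearest marked gene to the first bin at 39.8 kb, was not among the partners. H3K4me3 at Cebpb was 140.2 and 169.3.

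Among genes that mark homeostatic microglia, 5 of 21 marked genes were joined to members (23.8%, against 5.14% of all marked genes). They included Sall1, P2ry12, Tmem119 and Cx3cr1. Sall1, the transcription factor gene that the study is about, was joined to 4 members in 3 runs. The bin at chr8:89400001-89405000 had 21 read pairs against 2.72 expected with the Sall1 bin at 360 kb, and that at chr8:89410001-89415000 had 13 against 3.39 at 370 kb. Farther away, the adjacent bins at chr8:89570001-89580000 had 13 against 1.95 at 530 kb and 26 against 2.53 at 535 kb. Ratios were thus 7.71, 3.84, 6.66 and 10.3, and the farthest bin had the highest. The 4 partners of the far pair formed 1 run of adjacent bins around the Sall1 TSS. Within 250 kb of these 2 bins there were 0 and 1 marked bins, so few marked bins lay around them. H3K4me3 at Sall1 was 244.6 and 246.9.

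**Figure D3:**
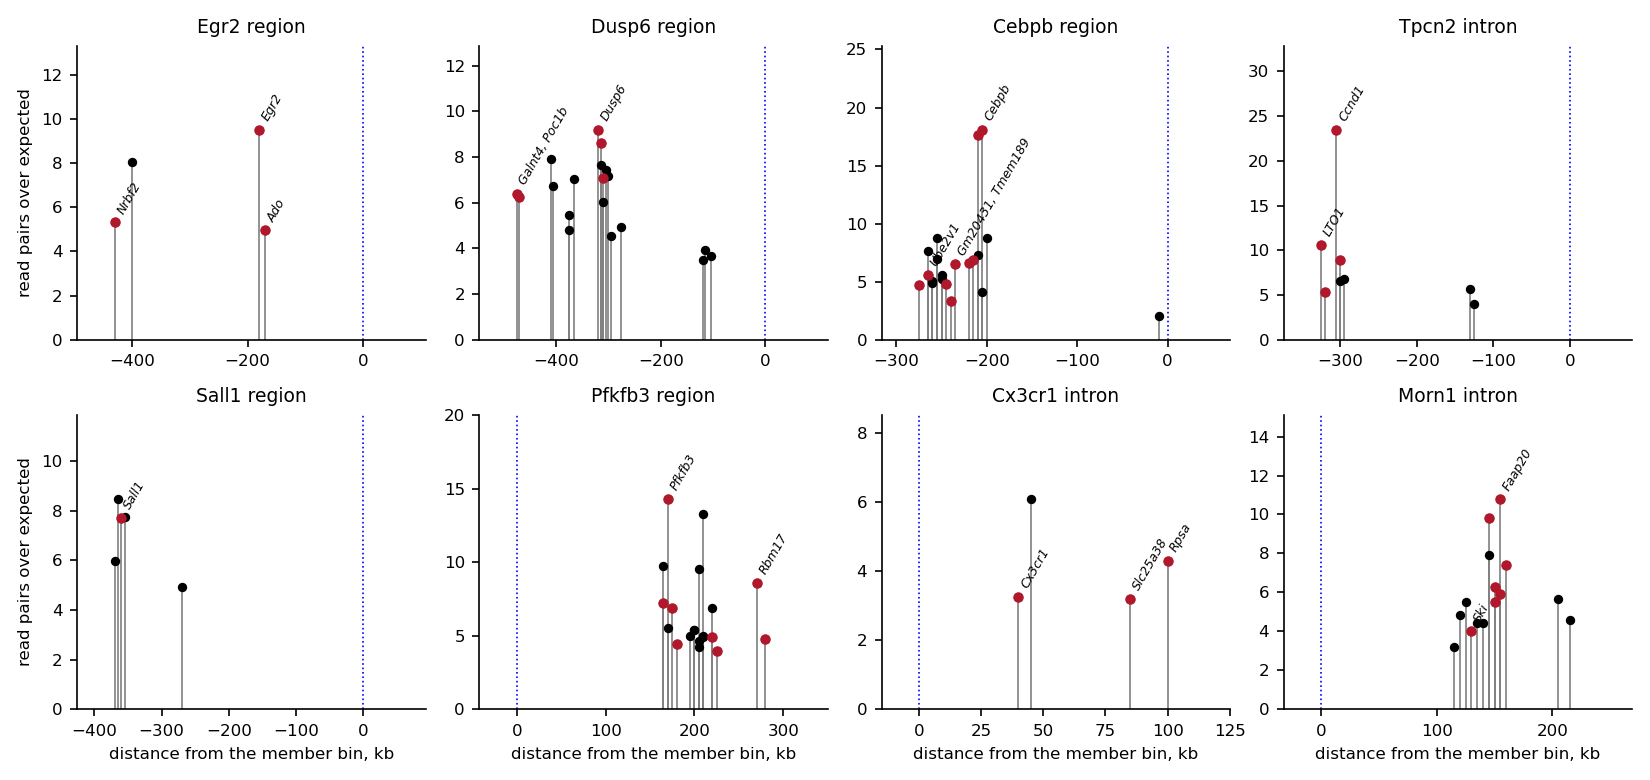
Read pairs over expected of each called contact against the distance from its member bin (0, dotted line), for 8 members or runs of adjacent members. Red points with gene names are contacts to bins with a coding TSS, and black points contacts to marked bins without one; Ccnd1 at 305 kb from the Tpcn2 intron reached 23.5, whereas the contacts of the Cx3cr1 intron lay between 3.19 and 6.09.

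The other homeostatic genes named here were joined over much shorter distances than Sall1. Cx3cr1, the fractalkine receptor gene, was joined to a bin in its own intron at 40 kb (47 read pairs against 14.4), which also reached Slc25a38 and Rpsa. P2ry12, a purine receptor gene, was joined to a bin in its intron at 30 kb on the left (20 against 6.84) and at 10 kb on the right (36 against 15.9), at 2 of its TSSs. For Tmem119 the bin in the Iscu gene had 37 read pairs against 11.6 at 25 kb. The contacts with the TSS bins of Cx3cr1, P2ry12 and Tmem119 thus had ratios below 4.05, the ratio over all members. However, the contacts of all members had a median distance of 140 kb, against 10 to 40 kb here, so the values are not matched for distance. At Cx3cr1 the bin next to the TSS was higher, with 50 read pairs against 8.21 at 45 kb.

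Transcription factor genes of myeloid cells were joined to members in 6 of 54 cases (11.1%). They were Irf2, Cebpb, Fos, Egr2, Elf1 and Nr4a1. A contact with any unmarked bin was called for 36 of the 54, and for 4005 of all 12291 marked genes. Among genes with such a contact, those joined to members were 6 of 36 here and 632 of 4005 over all marked genes. Irf2, an interferon regulatory factor, was joined to 4 members in 4 runs, at chr8:46765001-46770000, chr8:46785001-46790000, chr8:46840001-46845000 and chr8:46850001-46855000. The first of these had 25 read pairs against 9.53 expected with an Irf2 TSS bin at 30 kb. Egr2, an early growth response factor, had 35 read pairs against 3.68 at 180 kb with an intergenic bin at chr10:67715001-67720000. That bin also reached Ado with 15 against 3.03, and Nrbf2 with 8 against 1.51 at 430 kb. Elf1 was joined to a bin in its own intron and Nr4a1 to an intergenic run at chr15:101235001-101245000, whose strongest contact was Atg101 with 46 against 8.47.

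The TGF-beta and SMAD list, a pathway that maintains microglial identity, had 4 of 32 marked genes joined to members (12.5%). They were Ski and Tgif1, both corepressors of SMAD proteins, Smad7, an inhibitory SMAD, and Zeb2, a SMAD-binding transcription factor. Ski had 22 read pairs against 5.46 expected at 130 kb with the Morn1 intron run at chr4:155090001-155105000. Faap20 had more with the same bin, 41 against 3.79 at 155 kb. The elements of Zeb2 at chr2:45255001-45260000 and of Tgif1 at chr17:70965001-70975000 had no other coding gene among 5 partners each, and that of Smad7 at chr18:75300001-75305000 none among 4. Apart from Ski, then, these genes were the only coding gene joined to their elements.

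Other lists, apart from the microglia markers, ranged from 0 to 29.4%. Chemotaxis and adhesion had 5 of 17 (Cx3cr1, P2ry12, the integrin genes Itgb5 and Itga6, and Icam1), and inflammatory genes 3 of 16 (Tnf, Tnfaip3 and Socs3). Interferon genes had 2 of 16, the receptor genes Ifnar1 and Ifnar2, which shared 1 bin at chr16:91360001-91365000. Lysosomal genes had 2 of 23 (Grn among them), cell cycle genes 1 of 14 (Ccnd1), disease-associated microglia genes 1 of 16 (Cd9), Alzheimer risk genes 1 of 26 (Picalm) and regulators of other lineages 0 of 8. The microglia signature of the study, a list that is not independent of these cells, had 15 of 224 (6.70%). Of the 12 microglia markers, 6 were joined to members. The 5.14% over all marked genes also counts genes without a called contact to any unmarked bin. Among genes with such a contact, 5 of 14 homeostatic, 4 of 17 TGF-beta and 15 of 111 signature genes were joined to members. Over all marked genes it was 632 of 4005. These lists are short and share genes, they were chosen with earlier results known, and their shares were not tested.

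**Figure D4:**
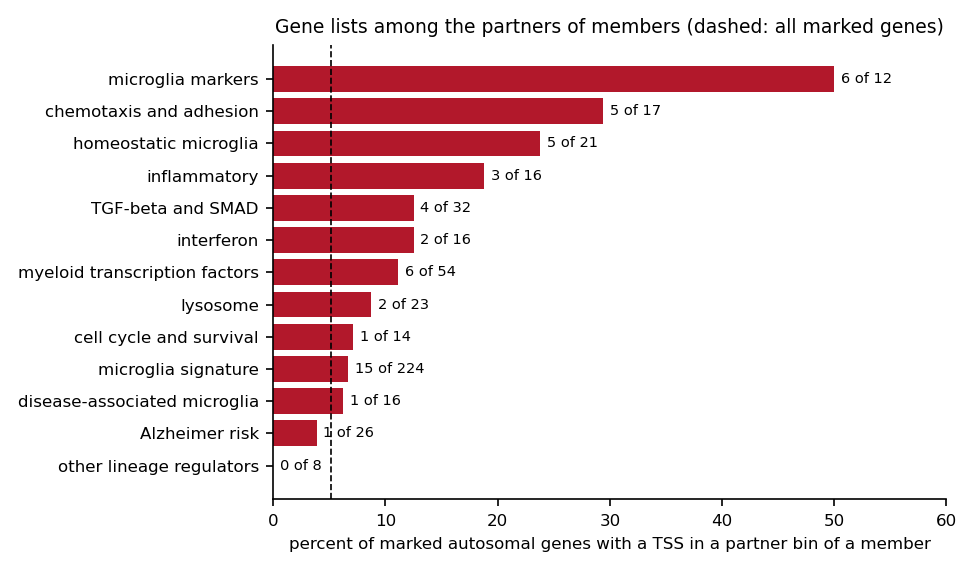
Percent of the marked autosomal coding genes of each list that had a TSS in a marked partner bin of a member, with the counts beside the bars. The dashed line is the value over all 12291 marked genes (5.14%); the microglia markers were the highest (6 of 12) and the Alzheimer risk genes at 3.85% (1 of 26).

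Several members held a TSS themselves although they were flagged as unmarked. Besides Gp1ba, Tm4sf5 and Ninj2, these were Qrich2 (in a run joined to Exoc7, Srp68 and Foxj1), Gng7 (joined to Gadd45b, Lmnb2 and Timm13), Fcrlb (joined to the Fc receptor genes Fcgr2b and Fcgr3), Tmem95, Nr1i3, Olfr750, Zfp217 and Ankrd11. Of these bins, 2 had a deposited peak, with 10.1 in replicate 1 (Qrich2) and 5.22 in replicate 2 (Olfr750). Zfp217 and Ankrd11 were also among the genes in the partners of their bins, since each has a further TSS there. Among elements named for other reasons, the run at chr10:41670001-41685000 in a Ccdc162 intron had 39 read pairs against 2.81 with Cd164, a sialomucin gene, and that at chr2:71790001-71810000 in an Itga6 intron was joined to the TSS bins of Dlx1, with peaks of 37.4 and 58.2, and Dlx2, with 31.9 and 38.8. The peaks of the Dlx1 bin lay elsewhere in it, since neither replicate had a peak within 1 kb of a Dlx1 TSS. Picalm, an endocytic adaptor gene, had 33 against 4.67 with the element at chr7:90035001-90040000.

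Base composition of members was close to that of other unmarked bins. The GC content was 46.6% (median, quartiles 44.0 and 49.1) in members and 45.2% (quartiles 42.4 and 48.2) in the other bins. The ratio of observed to expected CpG was 0.214 in members and 0.201 in the other bins, and repeats covered 24.1% and 24.8% of them. Motifs of macrophage factors were found at like shares in members and all unmarked bins. PU.1 matches were in 28.4% of members and 29.5% of all unmarked bins, AP-1 in 79.1% and 78.3%, RUNX in 76.6% and 75%, C/EBP in 85.3% and 85.5%, and IRF in 79.8% and 79.5%. SMAD matches were in 4.13% and 4.68%, MITF/TFE in 2.06% and 3.48%, and MEF2 in 5.96% and 8.72%. Except for MEF2, which was less frequent in members, these shares were thus close or, for MITF/TFE, rested on only 9 members. For MITF/TFE the 95% exact interval of the members was 0.948 to 3.88, which covers the share of all unmarked bins. In the central 1 kb, a MITF/TFE match was in 0.917% of members and 0.709% of all unmarked bins. For MEF2 the 95% exact interval of the members was 3.93 to 8.62, and in the central 1 kb a match was in 0.688% of members and 1.68% of all unmarked bins. The differences were not tested, and a bin of 5 kb is long against the size of an enhancer.

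CTCF matches were more frequent in members. A match was found in 52 members (11.9%, 95% exact binomial interval 9.04 to 15.3), in 7.13% (6.38 to 7.94) of bins with 2 or 3 partners and in 4.40% (4.04 to 4.79) of bins with 1, and in 5.30% of all unmarked bins. In the central 1 kb it was found in 3.21% of members and 1.08% of all unmarked bins. Among bins of 42 to 45% GC, a match was in 9.78% of members (9 of 92) and 3.98% of the other bins, at 45 to 48% in 11.9% (16 of 135) and 5.26%, and at 48 to 51% in 16.5% (15 of 91) and 7.69%. Where 0 to 7 marked bins lay within 250 kb, the shares were 10.8% (14 of 130) and 4.48%, with 8 to 14 they were 9.76% (16 of 164, interval 5.68 to 15.4) and 5.29% (4.73 to 5.90), which overlap, and with 15 or more they were 15.5% (22 of 142) and 6.75%. The members' share was thus the higher one in each of these 6 classes, but at 42 to 45% GC the intervals overlapped too (4.57 to 17.8 and 3.41 to 4.61). Bins with 2 or 3 partners lay in between, with 6.56% (5.19 to 8.17) at 45 to 48% GC against 6.93 to 18.5 for members. Their intervals overlapped those of the members in all 6 classes. The intervals cover counting error only, neighboring bins are not independent, and the difference was not tested. The marked partner bins of members had a match in 6.86% (89 of 1297), and the other marked partners in 6.63%.

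The direction of the CTCF matches followed the side on which the partners lay. In the 341 members with partners on 1 side only, 43 of 48 matches (89.6%, 95% exact interval 77.3 to 96.5) pointed towards the partners. Counted once per run, 40 of 45 runs had more matches towards than away. Among other unmarked bins with partners on 1 side, 689 of 818 matches (84.2%, 81.5 to 86.7) did so, and the direction was therefore also seen outside the members. CTCF matches in the partner bins pointed back to the member in 108 of 148 cases (73.0%), counted once per contact, and to the other unmarked bins in 81.9%. The other motifs with a direction served as a comparison. In members, 52.8% (43.7 to 61.8) of PU.1, 52.1% of RUNX and 49.6% of C/EBP matches pointed to the partners. IRF matches did so in 59.6% (386 of 648, 55.7 to 63.4), against 52.0% (51.4 to 52.5) in the other unmarked bins. A single bin held 36 of the 648, and by bins the count was 121 with more towards and 98 with more away. The IRF difference was not tested.

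**Figure D5:**
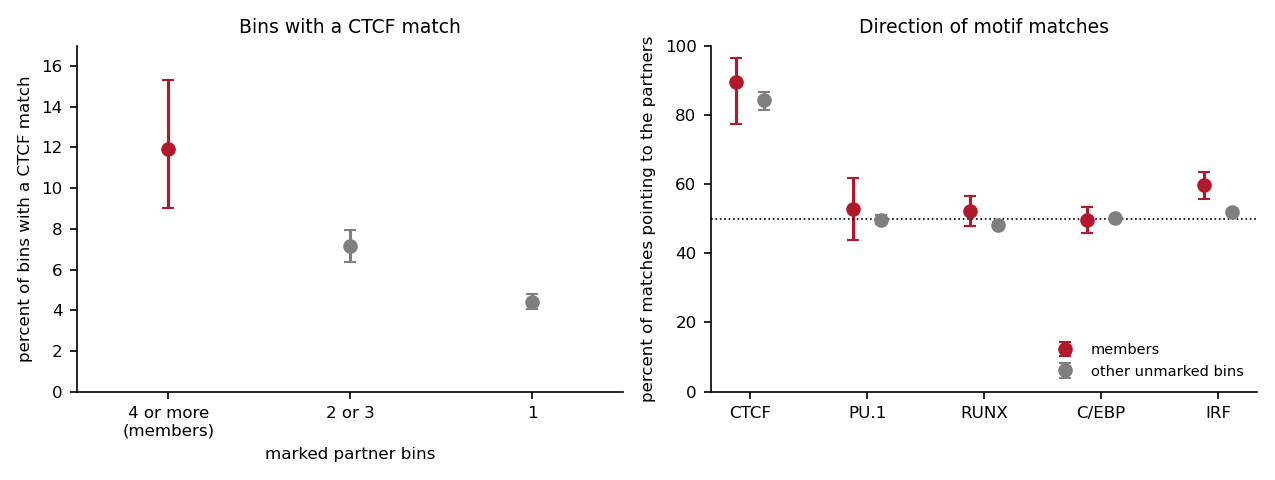
Left, percent of unmarked bins with a CTCF match by the number of marked partners, with 95% exact binomial intervals. Right, percent of the matches of each motif that pointed to the partners, in members (red) and other unmarked bins (gray). Only bins with partners on 1 side are included, with the same intervals and a dotted line at 50%. CTCF stood at 89.6% and 84.2% and IRF at 59.6% and 52.0%, and PU.1, RUNX and C/EBP lay near the line in both groups.

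Members with a CTCF match were joined to their partners somewhat more strongly. Their median summed ratio was 5.24 and their median distance 162.5 kb, against 4.36 and 135 kb for the 384 members without a match. At least 2 marked coding genes were joined to 37 of the 52 (71.2%), against 58.3% of the members without a match. The members with a match also lay among more marked bins, with a median of 13 against 10 within 250 kb. Their median GC content was 47.5%, against 46.2%. Both groups had 3 runs of partners as the median. These differences were not tested.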

How the data were processed

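The authors combined both PLAC-seq libraries and called contacts between 5 kb bins of mm10 with MAPS. The deposited list gives for each pair the read pair count, the expected count of the caller, a p-value adjusted as a false discovery rate (at most 0.01000), and a cluster. It holds pairs at 10 to 1000 kb with at least 7 read pairs and a ratio to expected of at least 2.00. Sequencing depth of these libraries is unknown. The flags rest on H3K4me3 peaks of the ENCODE pipeline. The deposited peak lists (Bowtie2 and HOMER in the submitters' processing notes) give tag counts and a signal, tags scaled to 10 M mapped tags, with 27845 peaks from 12.8 M tags in replicate 1 and 26574 from 13.4 M in replicate 2. Hi-C and input libraries were not analysed here.

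Members, genes and peaks were joined with Python 3.11.15, pandas 2.3.3, numpy 2.4.6, scipy 1.17.1 and pysam 0.24.0, and the code was tested on simulated data. GENCODE M21 basic gave TSSs and positions (centre of the bin), and GRCm38 the sequences. A gene was marked when each replicate had a peak no more than 1 kb from a TSS, and a bin held a peak with 1 bp of overlap. Exact binomial intervals (95%) cover counting error only. No test was made, since the contacts come from 1 combined list. The members and lists were chosen with earlier results of these data known. Named were the 12 runs with the most partners, the 10 with the most coding genes, up to 20 joined to homeostatic, TGF-beta, myeloid factor or Alzheimer risk genes, the 5 members with the highest ratio, those with peaks in both replicates and up to 10 with a coding TSS, beside the genes of each list. Windows of up to 120 bases with the most motif matches were printed. Some genes and sequences that the rule names are not reported here. Alternatives changed the number of partners, the contacts counted, the peaks and the position rule.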

Additional observations from a re-analysis of the deposited data

How the results depend on the processing

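How many members there are depends on how contacts are counted. Against 436 members in 344 runs, asking for 3 or more partners gave 1384 in 1059 runs and 5 or more gave 139 in 118. A false discovery rate of at most 0.0001 left 56 in 48 runs, at least 20 read pairs 56 in 51, partners merged where adjacent 150 in 128, partners with deposited peaks in both replicates 215 in 182, and cluster summits alone 1 in 1. Leaving out members with a deposited peak left 404 in 324 runs.

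The share of members with partners in 2 or more runs was 97.2%, against 91.7% with 3 or more partners, 99.3% with 5 or more, and 100% at the stricter false discovery rate, with summits alone and with merged partners. The share joined to 2 or more coding genes was 61.7%, against 49.6% with 3 or more partners, 76.3% with 5 or more, 67.9% at the stricter rate, 100% with summits alone, 72.0% with merged partners and 72.1% with peaks in both replicates. The median distance of 140 kb became 130 kb with 3 or more partners, 170 kb at the stricter rate, 50 kb with at least 20 read pairs, 190 kb with summits alone and 155 kb with merged partners. The ratio of 4.05 became 3.83 with 3 or more partners, 4.17 with 5 or more, 5.35 at the stricter rate, 3.22 with at least 20 read pairs, 3.84 with summits alone, 3.94 with merged partners and 4.09 with peaks in both replicates. These moves follow from which contacts each setting keeps.

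The share of members with a deposited peak was 0.917% in both replicates, and 3.67 to 4.59% when 1 replicate was left out. A CTCF match was in 11.9% of members, and in 3.21% when only the central 1 kb was read. By any overlap of the bin, 24.1% of members were intronic and 36.5% exonic, against 50.7% and 5.28% by the centre. The CTCF direction, 89.6% towards the partners, was 88.9% when counted once per run, an alternative chosen after seeing the data. Numbers of members and runs were compared by a fixed fold range, and the other values by the interval of the main value. By these rules, 14 of 64 alternatives stayed and 50 moved. The central 1 kb is a part of the bin, so motif shares there could not be higher. No paired analysis was possible because no result comes from a test between groups of samples. The libraries were combined, so agreement between the PLAC-seq replicates cannot be seen. Pairs that are not in the list were not called at this unknown depth.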
